A study of Mus musculus with 2 samples.

Results

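Alad, Scara5 and Gchfr are 3 genes of haem, iron and tetrahydrobiopterin metabolism that were compared between 2 clones of mouse mesoangioblasts, D16 and D351. They were chosen by earlier measurements on these same arrays, in which their D16 and D351 intensities lay far apart, so the contrast between the clones is given for them as a description and not as a test. Of 11868 probe sets and 5928 named genes on the array, 4 probe sets belong to these 3 genes: 1 for Alad, 2 for Scara5 and 1 for Gchfr. Mesoangioblasts are progenitor cells of embryonic vessels that can give mesodermal tissues, among them smooth muscle. Both clones came from the dorsal aorta of C57BL6 embryos (embryonic day 9.5). Cells of the explant were diluted to form clones over embryonic fibroblasts that mitomycin C had stopped from dividing, and the clones then grew on gelatin. No treatment or engineered allele is given for either clone. Each group is a single clone measured once, with total RNA on the C array of the murine U74 oligonucleotide set. A difference between these clones thus cannot be told apart from one between the arrays or their hybridizations, as there is no replicate check. Having 1 array a clone also limits the precision. In such bulk RNA, fewer cells of a type and less RNA per cell cannot be told apart.

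Haem is built from glycine and succinyl-CoA in a chain of enzymes shared by all cells that need haem proteins. Alad encodes delta-aminolevulinate dehydratase, the enzyme of the second step, which joins molecules of 5-aminolevulinic acid into porphobilinogen and is known for its sensitivity to lead. Iron enters most cells bound to transferrin, but it can also enter within ferritin. Scara5 encodes a class A scavenger receptor that binds ferritin at the cell surface and takes it up, as shown in mouse kidney. Tetrahydrobiopterin is the cofactor of nitric oxide synthases and of the aromatic amino acid hydroxylases. Gchfr encodes the feedback regulatory protein of GTP cyclohydrolase I, the first enzyme of tetrahydrobiopterin synthesis. This protein passes the inhibition by tetrahydrobiopterin, and the stimulation by phenylalanine, on to the cyclohydrolase.

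The promoters of Alad and Gchfr are shown because the readings of these genes lay apart. Which annotated start gave the transcripts read here was not tested. RefSeq windows (build GRCm38.p6) run from 250 bases before to 50 bases after an annotated start, and 2 of the 3 genes had one. Capitals mark matches, on either strand, to 6 short motifs: CCAAT (the CCAAT box), GGGCGG (the GC box), CACGTG (an E-box), TATAAA (the TATA box), AGATAAG (bound by GATA factors) and TGACNNNGC (the antioxidant response element).
Alad promoter, chr4:62520014-62520313, minus strand: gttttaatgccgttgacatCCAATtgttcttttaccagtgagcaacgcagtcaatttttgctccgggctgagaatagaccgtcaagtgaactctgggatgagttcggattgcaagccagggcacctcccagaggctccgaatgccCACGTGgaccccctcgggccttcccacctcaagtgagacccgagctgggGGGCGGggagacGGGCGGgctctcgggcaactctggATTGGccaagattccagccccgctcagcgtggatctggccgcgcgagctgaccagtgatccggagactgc
Gchfr promoter, chr2:119167538-119167837, plus strand: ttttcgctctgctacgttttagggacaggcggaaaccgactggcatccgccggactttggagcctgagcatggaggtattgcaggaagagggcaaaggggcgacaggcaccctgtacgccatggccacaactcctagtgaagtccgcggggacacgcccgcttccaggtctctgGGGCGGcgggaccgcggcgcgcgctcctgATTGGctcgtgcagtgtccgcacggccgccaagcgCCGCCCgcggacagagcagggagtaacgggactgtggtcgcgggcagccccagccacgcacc

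The Alad window held 2 CCAAT boxes, 2 GC boxes and 1 E-box, and its GC content was 60%. Alad has another annotated start, whose window shares 146 bases with the first and was 71.3% GC. It held 6 GC boxes, 4 of which overlapped in pairs, with 1 CCAAT box and 1 E-box. The Gchfr window, at 67.0% GC, held 1 CCAAT box and 2 GC boxes. The median GC content over all 32851 windows of the table was 52.7%. A CCAAT box was present in 37.4% of all windows, a GC box in 35.7% and an E-box in 7.15%. The TATA box (13.6% of all windows), the GATA site (3.04%) and the antioxidant response element (12.4%) had 0 matches in these windows. The matches describe the letters of the windows and not sites in use.

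Alad and Scara5 lay towards D16, and Gchfr lay towards D351. Alad had an intensity of 80.9 in D16, against 11.4 in D351. Scara5 had 163.7 in D16, against 1.1 in D351, by the probe set that measured it. Gchfr had 28.5 in D16, against 989.8 in D351. In the plot of all measured probe sets, each of the 3 stood well outside the band of 2-fold differences that held most transcripts.

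**Figure D1:**
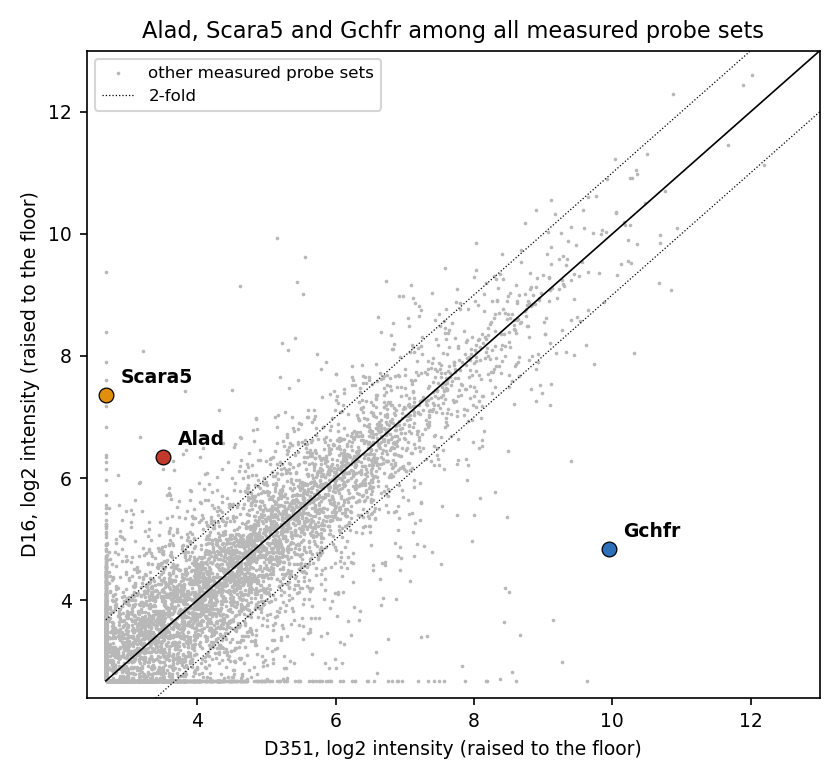
Log2 intensity in D16 (vertical axis) against log2 intensity in D351 (horizontal axis) for 6828 measured probe sets, with values at or below the floor raised to it; the solid line marks equal values and the dotted lines 2-fold. Alad (80.9 in D16 and 11.4 in D351) and Scara5 (163.7 and 1.1, drawn at the floor) lie above the band and Gchfr (28.5 and 989.8) below it.

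The values are linear intensities, 1 for each probe set and array, as deposited. A floor was set at 6.4, the median of all values. Values no higher than this are called dim and count as 6.4 when log2 is taken. A probe set is called measured when at least 1 clone is above the floor, and a ratio against a dim value is a lower bound. Of 38 readings from negative control probe sets, 8 also lay above this floor, the highest at 11.2. A value just above the floor thus does not show that a transcript was present. All log2 ratios are D16 minus D351, so a positive value means higher in D16. Of 6828 measured probe sets, 666 (9.75%) lay 2-fold or more towards D16 and 665 (9.74%) lay 2-fold or more towards D351. By gene, each represented by its brightest probe set, the shares were 10.2% and 10.3% of 3934 measured genes. Alad and Scara5 are thus 2 of 403 genes in the first direction and Gchfr is 1 of 404 in the second. Since the genes were picked from these tails, nothing is read from their count.

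Alad, the haem synthesis enzyme, had a log2 ratio of 2.83, a 7.10-fold difference. Its value in D351 barely exceeded the brightest of 38 readings from negative control probe sets (bacterial and yeast transcripts), which was 11.2. Its value in D16 was 7.22 times that reading. With a floor of 20.7, the 75th percentile of all values, the D351 value counts as dim and Alad is at least 3.91-fold higher in D16. Among 3061 genes above the floor in both clones, its ratio ranked 12 towards D16. The probe set carries the mark i, the manufacturer's sign for a set with fewer suitable probes than intended, and no other single-gene probe set reads Alad.

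Scara5, the ferritin receptor, lay at least 25.6-fold towards D16 (log2 ratio at least 4.68). The bound depends on where the floor is set, since 1.1 in D351 lies below the median negative control reading of 1.9. The higher floor of 20.7 gave at least 7.91-fold, and a floor of 1.8, the 25th percentile, gave at least 90.9-fold. The other probe set of Scara5 did not register the transcript, with 2.4 in D16 and 1.2 in D351, both dim. That set carries the mark r, given where probe selection rules had to be dropped, and the bright set carries no mark. Of 234 genes with more than 1 probe set and a brightest value within 2-fold of that of Scara5, 55 (23.5%) had every other probe set dim in both clones.

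Gchfr, the regulator of GTP cyclohydrolase I, was 34.7-fold higher in D351 (log2 ratio -5.12). Both values were above all negative control readings, by 2.54 times in D16 and by 88.4 times in D351. Both also lay above 20.7, so the ratio is the same with the floor there. Among the 3061 genes above the floor in both clones it ranked 3 towards D351. Its only probe set carries the mark r. Of 971 measured probe sets with this mark, 16.7% passed 2-fold in either direction, against 20.9% of 623 with the mark i and 19.3% of 4335 with none.

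Without replicate arrays, the nearest gauge of error is how far apart 2 probe sets of the same gene lie. For 409 genes with at least 2 probe sets above the floor in both clones, the ratios of the brightest 2, in log2, had an SD of 0.68 per probe set. The median absolute difference was 0.54 and the largest 3.93. In 6 of the 409 genes the probe sets differed by as much as the ratio of Alad, and in 0 by as much as the ratio of Gchfr or the bound of Scara5. These pairs hold probe sets measured in both clones, so they do not describe error near background, where the D351 values of Alad and Scara5 lie. None of the 3 genes is among the pairs. Alad and Gchfr have 1 probe set each, and the second set of Scara5 was dim in both clones. The 3 were picked because their intensities lay far apart, so exceeding this spread is no test of them.

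**Figure D2:**
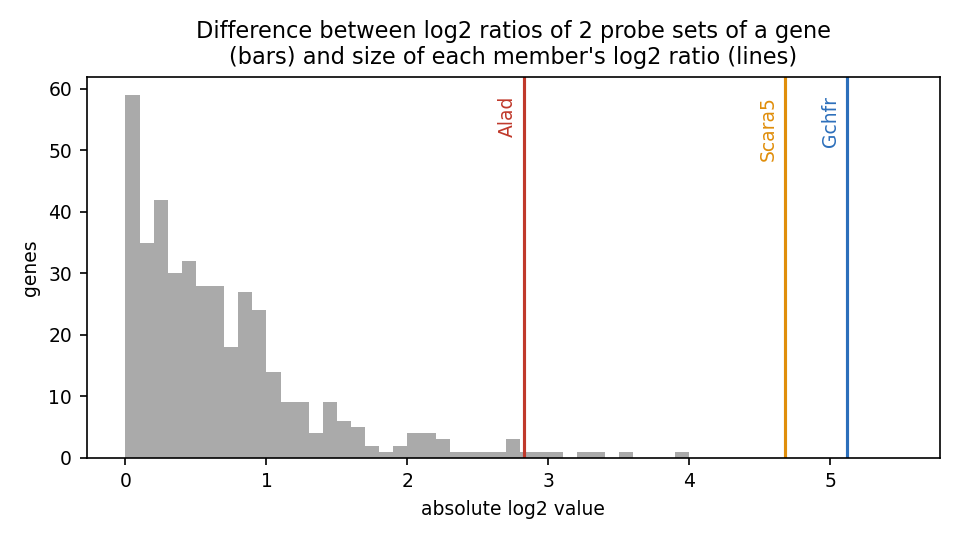
Histogram of the absolute difference between the log2 ratios of 2 probe sets of the same gene, for 409 genes, with vertical lines at the absolute log2 ratio of Alad (2.83), Scara5 (a lower bound of 4.68) and Gchfr (5.12). Most genes lie below 1, with a median of 0.54, and the lines of Scara5 and Gchfr stand to the right of the largest difference, 3.93.

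The scale of the arrays shifts these ratios without turning them. The trimmed means over all probe sets (2% removed at each end) were 20.01 in D16 and 20.01 in D351. The hybridization controls (9 probe sets for BioB, BioC, BioD and CreX) were, however, brighter in D16 by a median of 1.59-fold, with log2 ratios from 0.60 to 0.83. Scaling D351 up to match these controls lowers every log2 ratio between measured values by 0.67 and takes the median over measured genes to -0.59, against 0.022 as deposited. Alad was then 4.45-fold higher in D16 and Gchfr 55.4-fold higher in D351. The bound of Scara5 did not change, since its D351 value was still dim. The probe sets past 2-fold became 290 higher in D16 and 2054 higher in D351.

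**Figure D3:**
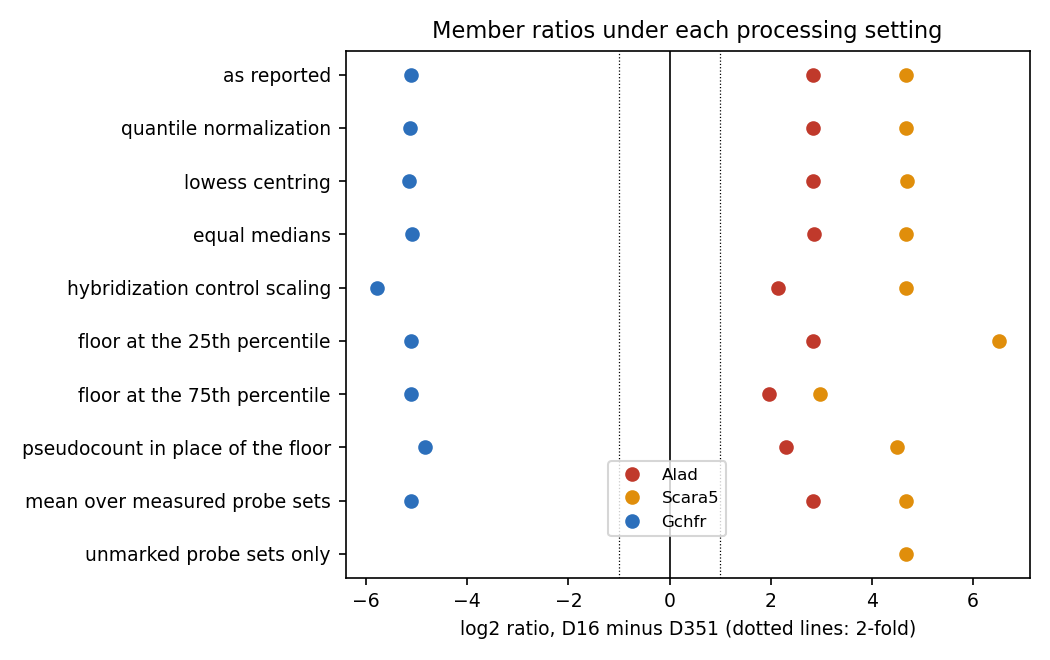
Log2 ratio, D16 minus D351, of Alad, Scara5 and Gchfr (points) as reported and under each alternative setting, with dotted lines at 2-fold. Alad runs from 1.97 to 2.86, Scara5 from 2.98 to 6.51 and Gchfr from -5.79 to -4.84, and Alad and Gchfr have no point for unmarked probe sets.

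Most measured genes of the surrounding pathways lay within 2-fold between the clones as deposited. Across 8 lists of haem, iron, tetrahydrobiopterin and scavenger receptor genes, 48 of 157 genes were on the array and 39 were measured. Without Alad, Scara5 and Gchfr, 4 of the other 36 (11.1%) passed 2-fold towards D16 and 1 (2.78%) towards D351, against the 10.2% and 10.3% of all measured genes. The median log2 ratio of the 36 was 0.0017, with 18 above 0 and 18 below, against 0.022 for all measured genes. With the control scaling, more values rose above the floor, and 39 genes were measured without Alad, Scara5 and Gchfr. Of these, 2 passed 2-fold towards D16 and 9 towards D351, with a median of -0.54, against -0.59 for all measured genes. Over the whole array, 12.4% of the probe sets past 2-fold then lay towards D16. With the floor at 20.7, again without the 3 genes, 2 of 20 passed 2-fold towards D16 (Blvrb and Prkg2) and 0 towards D351. Over the whole array, 261 and 260 probe sets did so. The number of measured probe sets changes with scaling and floor. Counts under these settings are therefore not compared with the 10.2% and 10.3%. The C array carries only part of each pathway, so the lists do not stand for whole pathways.

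**Figure D4:**
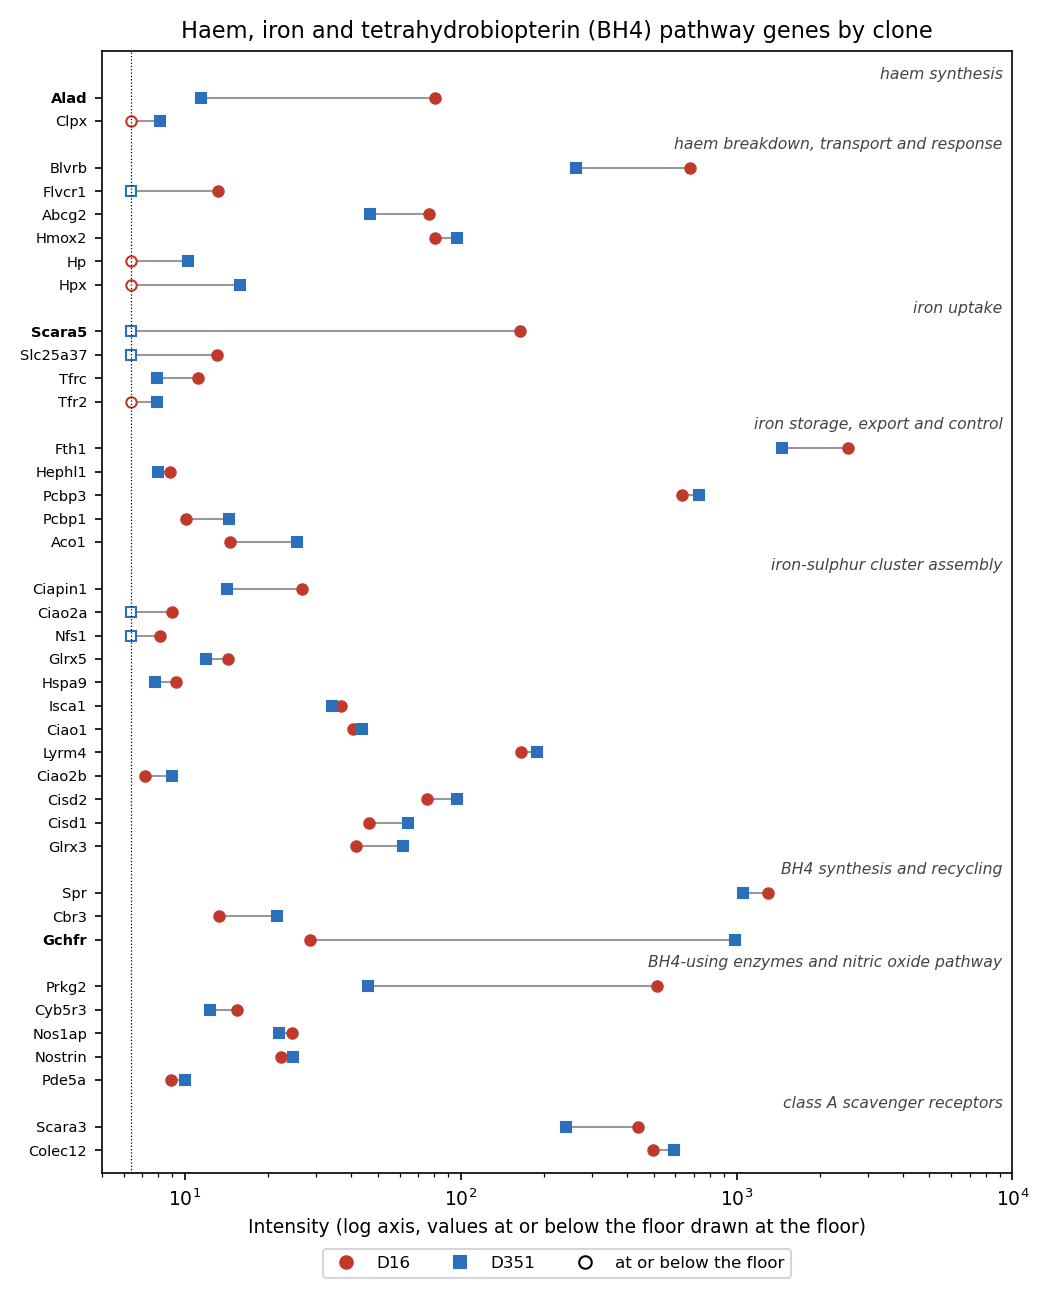
Intensity on a log axis in D16 (circles) and D351 (squares) for the 39 measured genes of the 8 pathway lists, by their brightest probe sets, with open symbols at the floor for dim values and each gene drawn once. Alad, Scara5 and Gchfr, picked because their intensities lay far apart, span the widest distances within their lists. Prkg2 is the widest of the others, and most remaining pairs lie within 2-fold.

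Of the haem genes, Alad was the only enzyme of the synthesis chain read here. Clpx, a mitochondrial protease subunit that activates aminolevulinate synthase, was dim in D16 (3.1) and stood at 8.1 in D351, at least 1.27-fold higher in D351. With the control scaling its log2 ratio was -1.01, and with the floor at 20.7 it was dim in both clones. Among 6 genes of haem breakdown and transport, 2 passed 2-fold towards D16 and 1 towards D351, with a median of 0.22 that became -0.45 with the control scaling. Blvrb, a biliverdin and flavin reductase, differed 2.60-fold, at 680 in D16 and 261.1 in D351, but with the control scaling its log2 ratio was 0.71, under 2-fold. That probe set carries the mark f, for a sequence family, so related transcripts may add to it, and the other set of Blvrb was dim in both clones. Flvcr1, a haem exporter, had 13.2 in D16 and a dim 3.4 in D351, at least 2.06-fold higher in D16, while its second probe set read a dim 0.3 in D16 and 7.8 in D351. Hpx, the haem-binding plasma protein haemopexin, had a dim 2.2 in D16 and 15.8 in D351, at least 2.47-fold higher in D351. With the floor at 20.7, Flvcr1 and Hpx were dim in both clones, so these calls rest on readings near background. Hmox2, the constitutive haem oxygenase, had 80.4 in D16 and 96.9 in D351.

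Of the iron uptake genes, 2 of 4 measured passed 2-fold, both towards D16. Beside Scara5, this was Slc25a37, which encodes mitoferrin 1, a carrier of iron into mitochondria. It had 13.1 in D16 and a dim 6.3 in D351, at least 2.05-fold higher in D16. With the control scaling its log2 ratio was 0.38, under 2-fold, and with the floor at 20.7 it was dim in both clones. Tfrc, the transferrin receptor, had 11.2 in D16 and 7.9 in D351, a log2 ratio of 0.50 that became -0.17 with the control scaling. The manufacturer's own control probe sets for this receptor read 28.4 in D16 and 15.5 in D351 at the 3' end. At the 5' end they read 9.6 in D16 and a dim 3.3 in D351. The middle set was dim in both clones, at 5.8 in D16 and 0.9 in D351, and gives no direction. The other Tfrc readings lay on the D16 side as deposited, all under 2-fold once dim values were raised to the floor. Tfr2, another transferrin receptor, was dim in D16 (5.0) and stood at 7.9 in D351 by its brightest set.

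None of 5 measured genes of iron storage, export and control passed 2-fold as deposited, and their median was -0.21. Aco1 and Pcbp1, 2 of the 5, passed it towards D351 with the control scaling, as did 2054 probe sets of the array. The median was then -0.88, against -0.59 for all measured genes. Fth1, the ferritin heavy chain, which with the light chain forms the iron store ferritin, had 2529 in D16 and 1457 in D351, a log2 ratio of 0.80. A second set gave 0.88. Both carry the mark f, and ferritin heavy chain has many processed copies, so these readings are uncertain. With the control scaling they came to 0.12 and 0.21. Pcbp3, a poly(rC)-binding protein related to the iron chaperone Pcbp1, read by its brightest set, had 631.9 in D16 and 730.9 in D351, a log2 ratio of -0.21. Aco1, iron regulatory protein 1, had 14.6 in D16 and 25.6 in D351, a log2 ratio of -0.81, or -1.48 with the control scaling. Of 12 measured genes of iron-sulphur cluster assembly none passed 2-fold as deposited, with a median of 0.0017, 6 above 0 and 6 below. The control scaling took the median to -0.67, against -0.59 for all measured genes. Of the 12, 3 (Cisd1, Cisd2 and Glrx3) then passed 2-fold towards D351, again among those 2054 probe sets. The brightest genes of this list were Lyrm4 (165.1 in D16 and 188.3 in D351), a partner of the cysteine desulphurase Nfs1, and the iron-sulphur protein Cisd2 (75.5 in D16 and 97.2 in D351).

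In the tetrahydrobiopterin pathway, the synthesis enzyme read beside Gchfr differed by less than 2-fold between the clones. Spr encodes sepiapterin reductase, which makes tetrahydrobiopterin in the last step of synthesis. Its 3 probe sets read 1299.3, 1045.9 and 460.5 in D16 and 1058.6, 957.1 and 460.6 in D351, so their log2 ratios ran from -0.00031 to 0.30. All 3 carry the mark f. With the control scaling the ratios were -0.67 to -0.38. Cbr3, a carbonyl reductase, had 13.3 in D16 and 21.6 in D351, a log2 ratio of -0.70. The control scaling took it to -1.37, past 2-fold, and with the floor at 20.7 the difference was 1.04-fold. GTP cyclohydrolase I itself, Pts, Qdpr and the nitric oxide synthases were not analysed here.

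Of 5 measured genes among the cofactor's users and the nitric oxide pathway, Prkg2 alone passed 2-fold. This cGMP-dependent kinase, downstream of nitric oxide and natriuretic signals, was 11.2-fold higher in D16, with 515 in D16 and 46 in D351. Nostrin, which binds endothelial nitric oxide synthase, had 22.4 in D16 and 24.7 in D351, and Nos1ap, an adaptor of the neuronal synthase, had 24.4 in D16 and 21.9 in D351. The median of the list was 0.16, or -0.43 with the control scaling, under which Prkg2 was still the one gene past 2-fold (log2 ratio 2.81). The scaled median is over 6 genes and not the same 5.

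The other class A scavenger receptors measured differed by less than 2-fold. Scara3, which lies 4 protein-coding genes from Scara5 on chromosome 14, had 438 in D16 and 240.8 in D351, a log2 ratio of 0.86, which became 0.19 with the control scaling. Colec12, a collectin with scavenger receptor features, had 495.7 in D16 and 591.4 in D351, a log2 ratio of -0.25, or -0.93 with the control scaling. Msr1 and Marco, the macrophage receptors of the class, were not analysed here.

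Most measured genes beside these 3 on their chromosomes lay within 2-fold, as did most measured genes of the array. Over all measured genes, 10.2% passed 2-fold towards D16 and 10.3% towards D351. For each of the 3, the nearest 4 measured protein-coding genes on either side were read in the RefSeq gene order. Towards D16, 2 of 8 around Alad, 1 of 8 around Scara5 and 2 of 8 around Gchfr passed 2-fold, and 0 towards D351. The 8 around Alad on chromosome 4 had log2 ratios from -0.42 to 1.67, with a median of 0.14. The highest was Prpf4, a splicing factor 5 genes away, at 85.5 in D16 and 26.8 in D351. Whrn, at 57.3 in D16 and 26.5 in D351, also passed 2-fold. The 8 around Scara5 had ratios from -0.72 to 1.83, with a median of -0.12, and Msra, a methionine sulphoxide reductase, was the highest at 39.0 in D16 and 11.0 in D351. The 8 around Gchfr on chromosome 2 had ratios from -0.85 to 1.38, with a median of 0.12. Of these, 2 lay past 2-fold opposite to Gchfr, namely Vps18 (35.8 in D16 and 17.0 in D351) and Nusap1 (109 in D16 and 42 in D351). Under the control scaling, 1 neighbour of Alad (Prpf4), 1 of Scara5 (Msra) and 0 of Gchfr passed 2-fold towards D16, and 1, 2 and 1 towards D351. That scaling put 290 probe sets of the array past 2-fold towards D16 and 2054 towards D351. Rmdn3, the gene adjacent to Gchfr, had 8.4 in D16 and 9.4 in D351.

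**Figure D5:**
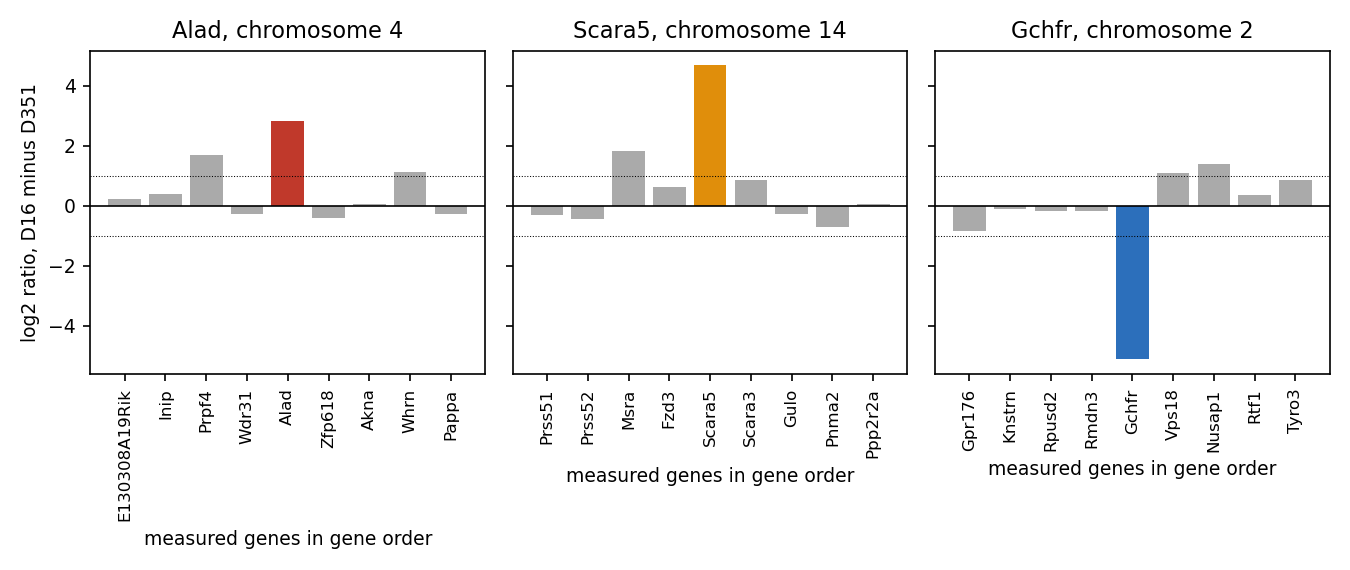
Bars give the log2 ratio, D16 minus D351, of Alad, Scara5 and Gchfr (coloured) and of the nearest 4 measured protein-coding genes on each side (grey), in gene order, with dotted lines at 2-fold. The grey bars run from -0.42 to 1.67 around Alad, -0.72 to 1.83 around Scara5 and -0.85 to 1.38 around Gchfr. The coloured genes were picked because their intensities lay far apart, so their longer bars are no result.

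The genes most like each of the 3 were found by the distance between points of log2 intensity in D16 and D351. Levels of different probe sets also depend on how well their probes bind, so this likeness describes readings on 2 arrays. Nearest to Alad were Mmd2 (78.0 in D16 and 12.5 in D351, distance 0.14), Ebna1bp2 (0.29), Tmem171 (0.35) and the adhesion molecule Alcam (0.48). Scara5 and its nearest genes were all dim in D351 and set to the floor there, so their distances rest on the D16 array alone. They were Nol4 (155.4 in D16 and dim in D351, distance 0.075), the reelin receptor Lrp8 (0.18), Dynap (0.26) and Slc35f1 (0.51). Nearest to Gchfr were Lrrc32 (12.8 in D16 and 563 in D351, log2 ratio -5.46, distance 1.41), Itga8 (1.54), Tram1l1 (1.61) and Cemip (1.62).

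Markers of other cell types are given for the cells that a clone or its feeder layer could have held. Of 16 embryonic fibroblast markers, 5 were on the array. By their brightest probe sets all 5 passed 2-fold towards D351, against 10.3% of all measured genes. The second set of Fgf10, at 17.9 in D16 and 28.6 in D351, stayed under 2-fold. Those of Mfap5 and Col5a1 were dim in both clones. The summed intensity of the brightest sets was 672 in D16 and 2406 in D351. These markers lay on the same side as Gchfr, as does every gene higher in D351, so nothing is read from this. Of 16 smooth muscle and mural markers, 5 were on the array. All 4 measured passed 2-fold towards D351, against the same 10.3% of all measured genes. The sum of the 5 was 111.5 in D16 and 1091 in D351, with Myocd dim in both clones. Of 17 endothelial markers, 5 were on the array, with a sum of 26.3 in D16 and 102.7 in D351. Egfl7 passed 2-fold towards D16 and Flt1 towards D351, while Sox17 and Sox18 were dim in both. Kdr, a receptor also used as a mesoangioblast marker, was dim in D16 (1.6) and stood at 9.5 in D351. Kdr passed 2-fold towards D351 too with the control scaling, and with the floor at 20.7 Egfl7 was dim in both clones. Of 19 erythroid and haematopoietic markers, 4 were on the array. None of 3 measured passed 2-fold as deposited. All 3 (Ank1, Itga2b and Slc4a1) passed it towards D351 with the control scaling, as did 2054 probe sets of the array. The sum of the 4 was 74.5 in D16 and 108.8 in D351, with the erythrocyte membrane gene Epb42 at 0.3 in both clones. The only macrophage marker read, Fcgr1, was dim, at 2.6 in D16 and 2.3 in D351. No marker was exactly at 0. No separate list of mesoangioblast markers was used, so the labelled cell type was not checked beyond these lists. The part of any of these cell types in the readings of Alad, Scara5 and Gchfr was not tested.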

How the data were processed

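The deposited values were linear intensities, 1 per array for 11934 probe sets, each summarised by the authors from a group of probes; the software is not given in the sources used here. Without 66 manufacturer control probe sets, 11868 remained. The platform annotation gave 1 gene for 7717 of them, several genes for 150 and no name for 4001. The RefSeq table of GRCm38.p6 held 7677 of the 7717 identifiers and gave the gene order. Intensities were used as deposited, raised to a floor of 6.4 and compared by a rule of size, 2-fold, with no test. The text names the 3 genes, and up to 4 genes of each pathway list past 2-fold in each direction or else its brightest 2. It also names preset partner genes, the nearest 4 genes by pattern and 4 neighbours a side. Beyond this rule, Clpx, Hmox2, Aco1, Cbr3, Nostrin, Nos1ap, Tfr2, Cybrd1 and Steap2 were added after their values were seen. Genes and lists were chosen with earlier results of these data known. As a check of the code, large changes were planted in bright probe sets of simulated arrays with little noise. This check does not describe calls near background or the spread between probe sets seen here. Alternatives concerned scaling, floor, probe sets and fold. Python 3.11.15 was used with statsmodels 0.14.6 (lowess, span 0.3), scipy 1.17.1, pandas 2.3.3, numpy 2.4.6 and matplotlib 3.10.9.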

Additional observations from a re-analysis of the deposited data

How the results depend on the processing

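Alad and Scara5 kept their direction towards D16 and Gchfr towards D351, all past 2-fold, under every alternative run that read them: 8 for Alad, 9 for Scara5 and 8 for Gchfr. Alad and Gchfr could not be read from unmarked probe sets. A move was counted when it exceeded 0.68, the SD of probe sets of the same gene. With the floor at the 75th percentile the log2 ratio of Alad was 1.97 and that of Scara5 2.98, and with the floor at the 25th percentile Scara5 reached 6.51; a floor sets the bound of a dim gene by construction. The 666 probe sets higher in D16 and 665 higher in D351 became 290 and 2054 with hybridization control scaling, 1685 and 1504 with the low floor, 261 and 260 with the high floor, 409 and 429 over unmarked probe sets and 217 and 279 with a 3-fold rule. The pathway counts that follow include Alad, Scara5 and Gchfr, picked because their intensities lay far apart. Without them, 4 pathway genes were higher in D16 and 1 in D351 as deposited. The 6 pathway genes higher in D16 became 3 with the 3-fold rule. The 2 higher in D351 became 10 with hybridization control scaling, 4 with the low floor, 1 with the high floor, 0 over unmarked probe sets and 1 with the 3-fold rule. Hybridization control scaling moved ratios between measured values by 0.67, just under that limit, to 2.15 for Alad and -5.79 for Gchfr. It turned the sign of 4 list medians: haem breakdown (-0.45, against 0.22 as reported), iron uptake (-0.17, against 0.77), iron-sulphur assembly (-0.67, against 0.0017) and the nitric oxide pathway (-0.43, against 0.16). As it raised dim values, iron uptake then had 6 measured genes, against 4, and the nitric oxide pathway 6, against 5. The 4 iron uptake genes were then at 4.68 (Scara5, picked for this contrast), 0.38 (Slc25a37), -0.17 (Tfrc) and -0.98 (Tfr2). The added Cybrd1 (-0.16) and Steap2 (-0.48) turned that sign. Without Scara5 the iron uptake median as deposited was 0.50. No paired analysis was possible because each clone had 1 array. One array per clone and readings near background, such as Alad and Scara5 in D351, limit these results.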
